A study of Homo sapiens with 15 samples.

Results

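The 10 genes described here are targets of the transcription regulators YAP and SRF: CCN1, CCN2, ANKRD1 and AMOTL2, which are widely used readouts of YAP bound to TEAD factors, and ACTA2, TAGLN, CNN1, MYL9, SRF and TPM1, which carry the contractile programme driven by SRF. They were taken by symbol from a table of 60670 genes, and each symbol matched 1 Ensembl gene. The table holds 15 RNA sequencing libraries of HT-1080, a human fibrosarcoma cell line. The cycling group was given DMSO, the vehicle, and has the time label 6 h. The other groups were made senescent by 6 days of a dominant negative TRF2, a form of the telomere-binding protein that uncaps telomeres, and then received DMSO or 1 uM GNF-7, a kinase inhibitor, for 6 h or for 24 h. Each of the 5 groups has 3 libraries, labelled as biological replicates. All groups come from 1 cell line, no GNF-7 group of cycling cells was analysed here, and whether the cycling cells carry the TRF2 construct is not given in the sources used here.

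YAP and its paralogue TAZ (gene WWTR1) are cofactors that the Hippo kinases keep out of the nucleus. When they enter it on a stiff substrate or at high actin tension, they bind TEAD factors and raise secreted matrix proteins such as CCN1 and CCN2 together with feedback inhibitors such as AMOTL2. SRF binds CArG boxes with either of 2 kinds of cofactor: the MRTF proteins, which are released from monomeric actin when filaments form and drive cytoskeletal genes, and the ternary complex factors (TCF), which respond to ERK and drive immediate early genes such as FOS. The pathways meet at the actin cytoskeleton, and several genes answer to both.

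Promoter sequences were read from RefSeq on GRCh38.p14 to show where the binding letters of these factors lie in the genes described. Entries were found for 7 of the 10 genes, and CCN1, TAGLN and MYL9 had none. The 250 bases before the start were searched on both strands for the TEAD motif CATTCC (reverse GGAATG) and for the CArG box. Only the strict box CCWWWWWWGG, where W is A or T, was counted, so near matches were left out. Capitals mark the motif. CCN2 (chr6:131951373-131951622, minus strand) held 3 TEAD motifs, the closest of them 90 to 95 bases before the start, and SRF (chr6:43171019-43171268, plus strand, the first of 2 RefSeq starts) held 2 CArG boxes next to its start.
CCN2: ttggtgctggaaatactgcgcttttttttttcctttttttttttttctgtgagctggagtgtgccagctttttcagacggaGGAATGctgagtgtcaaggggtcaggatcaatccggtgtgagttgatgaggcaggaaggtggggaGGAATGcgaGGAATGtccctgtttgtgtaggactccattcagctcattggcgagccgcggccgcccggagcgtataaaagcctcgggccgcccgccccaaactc
SRF: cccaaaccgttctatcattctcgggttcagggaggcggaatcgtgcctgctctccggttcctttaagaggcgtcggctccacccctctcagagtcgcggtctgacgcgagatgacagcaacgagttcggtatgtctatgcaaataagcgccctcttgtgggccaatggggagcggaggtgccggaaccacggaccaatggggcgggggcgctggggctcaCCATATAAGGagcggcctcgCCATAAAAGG

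Of the other promoters, ANKRD1 held 2 TEAD motifs, and AMOTL2 and ACTA2 held 1 each, at the second of the 2 RefSeq starts listed for each gene. They are shown with up to 10 bases on either side, because their letters match those in CCN2. The second ANKRD1 motif and the AMOTL2 motif lie in an exon in GENCODE release 29, which places the start of these transcripts further out.
ANKRD1, first motif, chr10:90921292-90921317, minus strand: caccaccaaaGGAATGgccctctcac
ANKRD1, second motif, chr10:90921200-90921225, minus strand: cactgagtctGGAATGaaaattcacc
AMOTL2, chr3:134374501-134374526, minus strand: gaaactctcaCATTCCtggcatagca
ACTA2, chr10:88952941-88952966, minus strand: gcagaccagtGGAATGcagtggaaga
The TEAD motif was found in 11.9% of the 35116 promoter windows in the table and the CArG box in 1.16%. At least 3 TEAD motifs were found in 0.0826% of windows and at least 2 CArG boxes in 0.0313%. CNN1 and TPM1 held neither motif in this window. The ACTA2 window with the TEAD motif also held ccctatatgg and ccttgtttgg, near matches to the CArG box that the strict search did not count. A match is a description of letters, and no binding was measured.

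Library totals ranged from 25991007 to 32323393 counts. TERF2, the gene whose mutant form was expressed, lay between 55.7 and 62.4 CPM (counts normalised to library size, with TMM scaling) in cycling libraries. In senescent ones it lay between 128 and 293 CPM, so the induced gene bore out the cycling and senescent labels. Its means were 287 CPM in vehicle and 222 CPM in GNF-7 at 6 h, and 220 and 132 CPM at 24 h. TERF2 RNA was thus lower with GNF-7 than in vehicle at both times and lower at 24 h than at 6 h. The part of this in the results was not tested. The share of counts in mitochondrial genes moved with the groups, from 3.75 to 5.01% in cycling cells up to 22.6 to 24.1% after GNF-7 for 24 h, and TMM scaling without these genes moved no log2 fold change of the genes described by more than 0.0239 and changed no call. The sum of 6 mesenchymal markers, VIM and FN1 among them, lay between 7844 and 10251 CPM in the other groups and between 5715 and 5976 CPM with GNF-7 at 24 h. That of 6 epithelial markers lay between 1.39 and 3.05 CPM in the other groups and between 4.28 and 5.88 CPM with GNF-7 at 24 h. Both sums thus moved with that group, and their part in its results was not tested. Among smooth muscle markers, SMTN supplied nearly all of the sum (128 to 208 CPM). That sum lay between 135 and 150 CPM with GNF-7 at 6 h and between 128 and 137 CPM at 24 h, against 190 to 208 CPM in the other groups. MYH11 and DES were at or under a mean of 0.236 CPM in every group, and the cofactor MYOCD had a mean of at most 0.0111 CPM. In bulk RNA, fewer cells with a transcript and less of it per cell cannot be told apart.

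CCN1 and CCN2 encode secreted matricellular proteins of the same family, which bind integrins. CCN2 (ENSG00000118523, GRCh38 chromosome 6, 131948176 to 131951373, minus strand) was at 336, 367 and 352 CPM in the cycling libraries, against 256, 230 and 243 CPM in the 6 h vehicle libraries of senescent cells. After GNF-7 for 6 h it was at 92.2, 86.9 and 90.7 CPM. At 24 h it was at 164, 135 and 154 CPM in vehicle and at 33.9, 29.2 and 32.6 CPM in GNF-7. Every group was separated from every other, and the group means ran from 352 ± 15.9 CPM in cycling cells to 31.9 ± 2.42 CPM with GNF-7 at 24 h (SD, n = 3). CCN1 (ENSG00000142871, chromosome 1, 85580761 to 85583962, plus strand) followed the same order. Its libraries held 628, 661 and 643 CPM in cycling cells, 520, 446 and 478 CPM in 6 h vehicle, and 192, 189 and 202 CPM after GNF-7 for 6 h. The 24 h libraries held 376, 307 and 337 CPM in vehicle and 80.6, 75.7 and 81.7 CPM in GNF-7. Again no 2 groups overlapped, and the highest and lowest means differed 8.12-fold. CCN2 shares exon positions with AL133346.1 on the other strand, so a part of its counts is uncertain if counting ignored strand.

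ANKRD1 encodes an ankyrin repeat protein of the striated muscle sarcomere that is also a common YAP readout in other cells, and AMOTL2 encodes an angiomotin that holds YAP in the cytoplasm. ANKRD1 (ENSG00000148677, chromosome 10, 90912096 to 90921276, minus strand) was at 129, 133 and 135 CPM in cycling cells, 83.6, 78.7 and 78.6 CPM in 6 h vehicle and 40.8, 43.0 and 42.4 CPM with GNF-7. At 24 h vehicle libraries held 52.8, 54.8 and 50.7 CPM and GNF-7 libraries 20.7, 17.4 and 18.0 CPM. The summed level of 6 striated muscle markers was at most 0.191 CPM in any library, so ANKRD1 was expressed where the defining muscle genes were near 0. AMOTL2 (ENSG00000114019, chromosome 3, 134355874 to 134375479, minus strand) was at 248, 252 and 257 CPM in cycling cells and at 220, 210 and 211 CPM in 6 h vehicle. GNF-7 libraries held 118, 115 and 115 CPM at 6 h and 79.7, 79.6 and 72.3 CPM at 24 h, against 159, 159 and 160 CPM in vehicle at 24 h. Both genes ranked the 5 groups as CCN1 and CCN2 did, with no overlap between neighbouring groups. AMOTL2 shares exon positions with a processed pseudogene on the same strand, RPL39P5, so a part of its counts is uncertain.

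**Figure D1:**
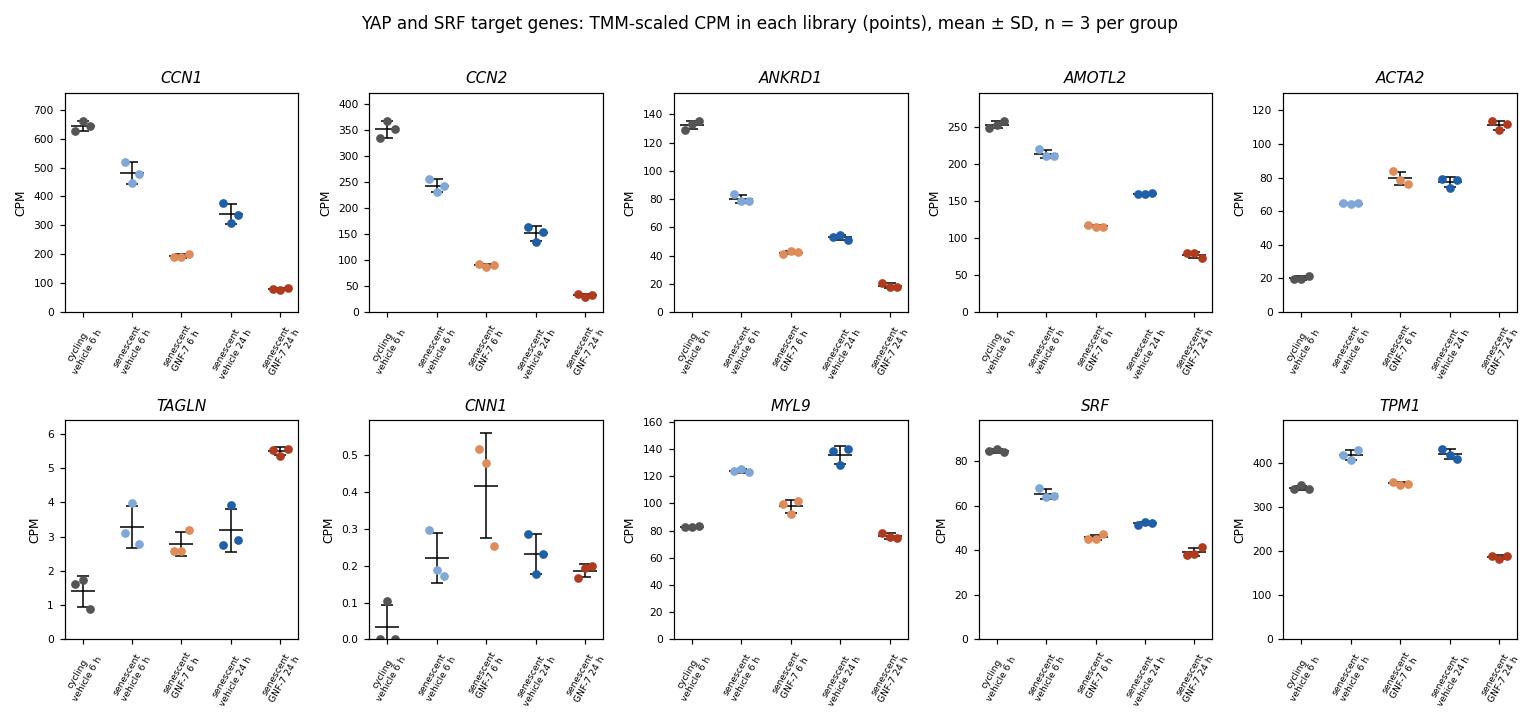
Level of each of the 10 genes in CPM (y axis, from 0, its own scale per gene) in every library (points) of the 5 groups (x axis), with the mean and SD of 3 libraries as bars. CCN1, CCN2, ANKRD1, AMOTL2 and SRF step down from cycling cells to GNF-7 at 24 h, ACTA2 runs the other way from 20.3 to 111 CPM, and CNN1 stays at or under 0.519 CPM.

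ACTA2 encodes smooth muscle alpha-actin, the standard marker of myofibroblasts, and it ran in the opposite direction. The gene (ENSG00000107796, chromosome 10, 88935074 to 88991339, minus strand) was at 19.4, 19.8 and 21.6 CPM in cycling cells and at 64.7, 64.0 and 64.9 CPM in 6 h vehicle. With GNF-7 it was at 83.8, 78.7 and 76.2 CPM at 6 h and at 114, 108 and 112 CPM at 24 h, against 79.1, 73.9 and 78.8 CPM in vehicle at 24 h. GNF-7 at 6 h and vehicle at 24 h overlapped, and all other pairs of groups were apart. The share of all genes with groups apart in this way is not given here, so this is a description. An exon of ACTA2 overlaps FAS on the other strand, and whether counting used strand is not given in the sources used here. FAS was at a mean of 52.5 CPM in cycling cells, 125 and 157 CPM in vehicle and GNF-7 at 6 h, and 119 and 99.0 CPM at 24 h. The log2 fold change of FAS had the sign of that of ACTA2 in senescence (1.25) and with GNF-7 at 6 h (0.33). With GNF-7 at 24 h it had the opposite sign (-0.26), and the part of FAS in the ACTA2 counts was not tested.

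TAGLN (transgelin, an actin-binding protein; ENSG00000149591, chromosome 11, 117199321 to 117204782, plus strand) was low throughout. It was at 1.61, 1.72 and 0.881 CPM in cycling cells and between 2.57 and 3.98 CPM in the 9 libraries of the next 3 groups, which overlapped. GNF-7 at 24 h held 5.54, 5.36 and 5.58 CPM, above all other libraries. PCSK7, which overlaps TAGLN on the other strand, had group means between 47.8 and 87.1 CPM, far above those of TAGLN. Its log2 fold change had the sign of that of TAGLN in senescence (0.42) and with GNF-7 at 6 h (-0.33) and the opposite sign with GNF-7 at 24 h (-0.86), and its part in the TAGLN counts was not tested. CNN1 (calponin, which binds actin in smooth muscle; ENSG00000130176, chromosome 19, 11538717 to 11550323, plus strand) was close to silent, with 0, 3 and 0 counts in the cycling libraries and 5 to 16 counts in the 12 senescent ones. CNN1 did not pass the filter on low counts and has no place in the tests. Without that filter it was called higher in senescence (log2 fold change 2.52, edgeR adjusted p 0.0282), on 3 counts in all cycling libraries together, and so was GNF-7 at 6 h against cycling cells (3.41, adjusted p 6.53e-04), on the same 3 cycling counts. GNF-7 against vehicle was not called at 6 h (0.89, adjusted p 0.493) or 24 h (-0.33, adjusted p 0.855).

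MYL9 encodes a regulatory light chain of non-muscle and smooth muscle myosin, and TPM1 a tropomyosin that lies along actin filaments. MYL9 (ENSG00000101335, chromosome 20, 36541484 to 36551447, plus strand) was at 82.5, 82.4 and 83.6 CPM in cycling cells and at 124, 126 and 123 CPM in 6 h vehicle. It was at 99.6, 92.0 and 102 CPM after GNF-7 for 6 h and at 78.2, 75.5 and 74.2 CPM after 24 h, with 139, 128 and 140 CPM in vehicle at 24 h. The GNF-7 libraries at 24 h were therefore below even the cycling ones. TPM1 (ENSG00000140416, chromosome 15, 63042632 to 63071915, plus strand) had a similar profile, at 340, 348 and 340 CPM in cycling cells, 417, 406 and 429 CPM in 6 h vehicle and 356, 350 and 352 CPM with GNF-7. Its 24 h libraries held 432, 417 and 409 CPM in vehicle and 189, 182 and 188 CPM in GNF-7, the lowest of all groups. TPM1 overlaps its antisense gene TPM1-AS, whose group means were at most 0.29 CPM. It also overlaps AC079328.2 on the other strand, whose level was not read here.

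SRF itself (serum response factor, ENSG00000112658, chromosome 6, 43171299 to 43181507, plus strand) fell in senescence, where ACTA2, TAGLN, MYL9 and TPM1 rose. With GNF-7 SRF fell, as did MYL9 and TPM1. It was at 84.5, 85.8 and 84.1 CPM in cycling cells, 68.1, 63.8 and 64.6 CPM in 6 h vehicle and 45.1, 45.2 and 47.2 CPM with GNF-7. At 24 h it was at 51.2, 52.6 and 52.4 CPM in vehicle and 37.9, 38.4 and 41.5 CPM in GNF-7. This is the order seen for the YAP targets, without overlap between neighbouring groups. The order was read off these genes, so that 5 of the 9 genes tested (CCN1, CCN2, ANKRD1, AMOTL2 and SRF) meet it is a description. Of all 18563 genes tested, 1.38% meet it.

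Comparisons between genes were made per length, in RPKM (CPM per kilobase of merged exons). CCN1 and CCN2 were the most abundant in cycling cells, at means of 262 and 150 RPKM, while ACTA2 was at 6.81 RPKM. In GNF-7 cells at 24 h ACTA2 was the most abundant, at 37.3 RPKM, ahead of CCN1 at 32.3 RPKM, and CCN2 was at 13.6 RPKM. TAGLN and CNN1 were the lowest in every group. The place of TPM1 depends on the length used, since its merged exons are 12876 bases and its longest transcript 3957 bases. Over all libraries TPM1 had a mean of 26.7 RPKM on the first and 86.9 RPKM on the second.

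The first contrast asked what senescence did to these genes in vehicle at 6 h. The YAP group fell, and the contractile genes tested rose, apart from SRF. All 4 YAP targets were lower in senescent cells, by 1.18-fold for AMOTL2 (log2 fold change -0.24, SE 0.038), 1.34-fold for CCN1 (-0.42, SE 0.063), 1.45-fold for CCN2 (-0.54, SE 0.055) and 1.65-fold for ANKRD1 (-0.72, SE 0.047). ACTA2 rose 3.18-fold (1.67, SE 0.054, edgeR adjusted p 2.50e-36), TAGLN 2.37-fold (1.24, SE 0.214, adjusted p 7.21e-07), MYL9 by less (0.58, SE 0.043) and TPM1 1.22-fold (0.29, SE 0.035), while SRF fell (-0.37, SE 0.048). Thus 4 of the 9 genes tested rose and 5 fell, beside 35.6% of all genes tested that rose and 34.4% that fell, 70% in all. With so many genes called, a call by itself says little here. Removing genes under 5 CPM made the senescence changes of CCN1 (-0.27), AMOTL2 (-0.09) and SRF (-0.22) smaller and that of TPM1 (0.44) larger, and total counts gave AMOTL2 -0.11 and SRF -0.24, all still called. The median log2 fold change was -0.48 for the 4 YAP targets and 0.06 for all genes tested, and 26.1% of all genes were called with at least a 2-fold change, as were ACTA2 and TAGLN.

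Vehicle cells were next compared between 24 h and 6 h, to see what moved without GNF-7. All 4 YAP targets fell again, CCN2 by 0.68 (SE 0.057, edgeR adjusted p 4.87e-09), ANKRD1 by 0.60 (SE 0.050), CCN1 by 0.50 (SE 0.064) and AMOTL2 by 0.42 (SE 0.038) on the log2 scale. SRF fell by 0.33 (SE 0.049) and ACTA2 rose (0.26, SE 0.048). TPM1 (0.01, SE 0.034) and TAGLN (-0.05, SE 0.191) did not pass the test. MYL9 passed it with a small rise (0.13, SE 0.042, adjusted p 0.0214), a call that was lost without vehicle replicate 1 (0.13) or 3 (0.12) at 6 h, without vehicle replicate 1 (0.12) or 3 (0.11) at 24 h, without a filter (0.12) and with scaling by total counts alone (0.02). Of the 9 genes tested, 2 were called higher and 5 lower, beside 9.26% higher and 9.29% lower of all genes (18.5% in all). Scaling by total counts moved the share of higher calls among all genes from 49.9% to 12.5%, and under it the 4 YAP targets and SRF were still called lower and ACTA2 higher (0.15).

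The effect of GNF-7 in senescent cells after 6 h was measured against vehicle at the same time. The YAP targets fell most. CCN2 fell furthest (log2 fold change -1.43, SE 0.059, edgeR adjusted p 1.03e-15) and CCN1 2.48-fold (-1.31, SE 0.065, adjusted p 8.88e-11), and ANKRD1 and AMOTL2 fell 1.91-fold (-0.93, SE 0.051) and 1.84-fold (-0.88, SE 0.039). Only 0.296% of all genes tested had a lower log2 fold change than CCN2, and 1.55% a lower one than AMOTL2. SRF (-0.51, SE 0.049), MYL9 (-0.34, SE 0.043) and TPM1 (-0.24, SE 0.034) also fell, ACTA2 rose (0.30, SE 0.047, adjusted p 2.85e-07) and TAGLN did not pass the test (-0.24, SE 0.192, adjusted p 0.339; 95% interval -0.62 to 0.13). In all, 7 of 9 were called lower and 1 higher, beside 21.4% lower and 17.9% higher of all genes (39.3% in all).

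After 24 h the YAP targets, TPM1 and MYL9 had fallen further against vehicle than at 6 h. CCN2 was 4.74-fold lower than in vehicle (-2.25, SE 0.065, edgeR adjusted p 2.64e-19), CCN1 4.29-fold (-2.10, SE 0.069, adjusted p 1.02e-13), ANKRD1 2.82-fold (-1.50, SE 0.057) and AMOTL2 2.06-fold (-1.04, SE 0.040). TPM1, which had moved little at 6 h, was 2.25-fold lower (-1.17, SE 0.035, adjusted p 1.58e-37) and MYL9 1.79-fold lower (-0.84, SE 0.043). SRF was 1.33-fold lower (-0.41, SE 0.051), against -0.51 at 6 h. ACTA2 rose 1.44-fold (0.52, SE 0.046, adjusted p 1.71e-15) and TAGLN 1.72-fold (0.79, SE 0.182, adjusted p 1.71e-04). All 9 genes tested were called, 7 lower and 2 higher, beside 29.7% lower and 29.3% higher of all genes (58.9% in all). A call with at least a 2-fold change was made for 5 of the 9, all lower, and for 14.2% of all genes.

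**Figure D2:**
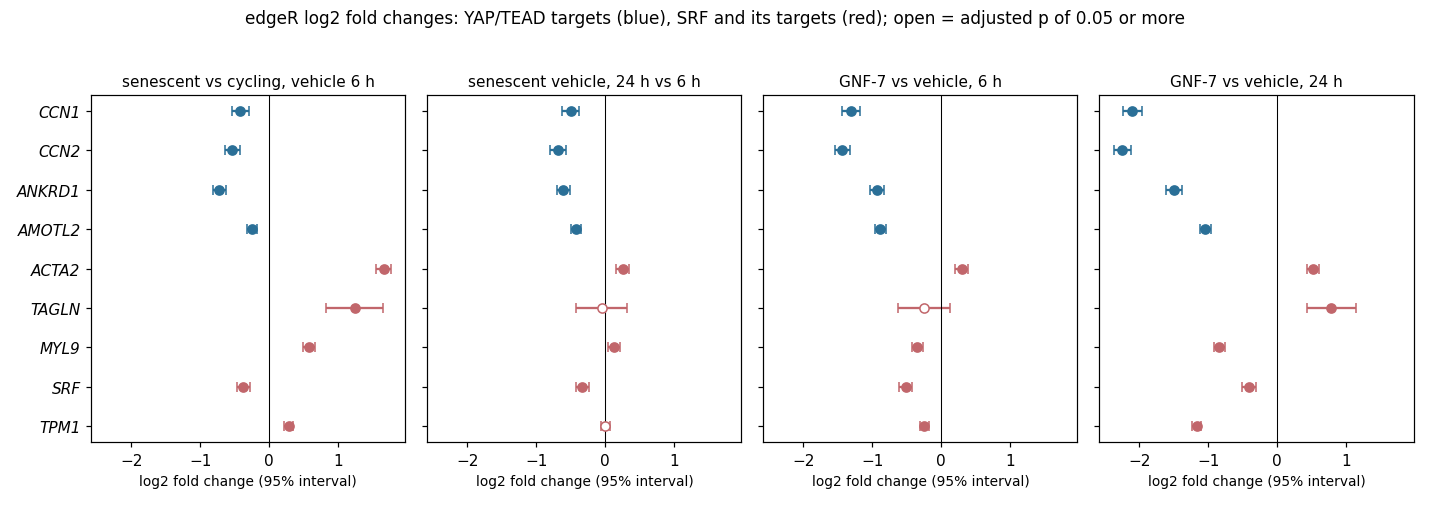
log2 fold change (x axis, with 95% intervals) of the 9 genes tested in 4 contrasts, YAP targets in blue and SRF with its targets in red; open symbols did not pass the test. The blue points lie left of 0 in every panel and reach -2.25 for CCN2 with GNF-7 at 24 h, whereas ACTA2 lies right of 0 in every panel.

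The interaction tested whether the GNF-7 effect differed between 24 h and 6 h. The effect was more negative at 24 h for TPM1 (difference of log2 fold changes -0.92, SE 0.049, edgeR adjusted p 5.62e-24), CCN2 (-0.81, SE 0.087), CCN1 (-0.79, SE 0.094), ANKRD1 (-0.56, SE 0.077) and MYL9 (-0.50, SE 0.061). It was more positive for TAGLN (1.03, SE 0.265, adjusted p 0.0016) and ACTA2 (0.22, SE 0.066, adjusted p 0.0066). For SRF the difference was 0.11 (SE 0.071, adjusted p 0.279; 95% interval -0.03 to 0.25) and did not pass the test. That of AMOTL2 was small (-0.16, SE 0.056, adjusted p 0.0216), and it was no longer called when no filter was used (-0.16), when genes under 5 CPM were removed (-0.11), or without vehicle replicate 2 (-0.15) or 3 (-0.15) at 6 h or GNF-7 replicate 3 at 24 h (-0.12). Of 9 genes, 6 were called lower and 2 higher, beside 18% lower and 12.8% higher of all genes (30.8% in all).

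GNF-7 treated senescent cells were also set against cycling cells at the shared 6 h. The YAP targets stood 2.18-fold (AMOTL2) to 3.91-fold (CCN2) below cycling cells and SRF 1.85-fold below. ACTA2 stood 3.92-fold above, TAGLN 2.00-fold and MYL9 1.18-fold (0.24, but 0.38 with total counts and 0.44 without genes under 5 CPM). TPM1 did not pass the test (0.04, SE 0.035, adjusted p 0.259), but was called after scaling by total counts (0.19), when genes under 5 CPM were removed (0.25) and in a fit of only these groups (0.083). Of 9 genes 5 were called lower and 3 higher, beside 36.1% lower and 39.6% higher of all genes (75.7% in all). This contrast shares its libraries with the senescence and 6 h contrasts and is no separate evidence.

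The cofactors and TEAD factors were read at the RNA level, which does not show how much of the protein is in the nucleus. YAP1 fell in senescence (from 197 ± 3.67 to 165 ± 6.22 CPM, log2 fold change -0.26) and did not pass the test with GNF-7 at 6 h (-0.01, SE 0.038, edgeR adjusted p 0.855), when CCN2 fell by 1.43 on the log2 scale. At 24 h YAP1 was at 133 ± 1.14 CPM in GNF-7 and 144 ± 3.57 CPM in vehicle (-0.11, adjusted p 0.0133). WWTR1, which encodes TAZ, fell from 395 ± 5.11 to 215 ± 6.76 CPM in senescence (-0.88) and again with GNF-7 (-0.31 at 6 h and -0.51 at 24 h). TEAD1, the TEAD gene with the highest CPM, rose with GNF-7 at 6 h (0.46) and fell at 24 h (-0.33), a difference between times of -0.79 (adjusted p 2.09e-18).

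TEAD4 fell from 28.5 ± 1.06 to 10.2 ± 0.604 CPM in senescence (-1.48) and TEAD3 rose from 15.5 ± 0.288 to 28.4 ± 1.45 CPM (0.87). TEAD2 was at or under a mean of 4.75 CPM. It fell with GNF-7 at both times (-0.57 and -0.77). MRTFA, the actin-sensing SRF cofactor, rose in senescence (0.18, SE 0.068) and fell with GNF-7 at 6 h (-0.55, SE 0.069) and 24 h (-0.48, SE 0.071). MRTFB did not pass the test in senescence (-0.07) or with GNF-7 at 6 h (-0.12), and was slightly higher with GNF-7 at 24 h (0.18, adjusted p 0.0412).

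**Figure D3:**
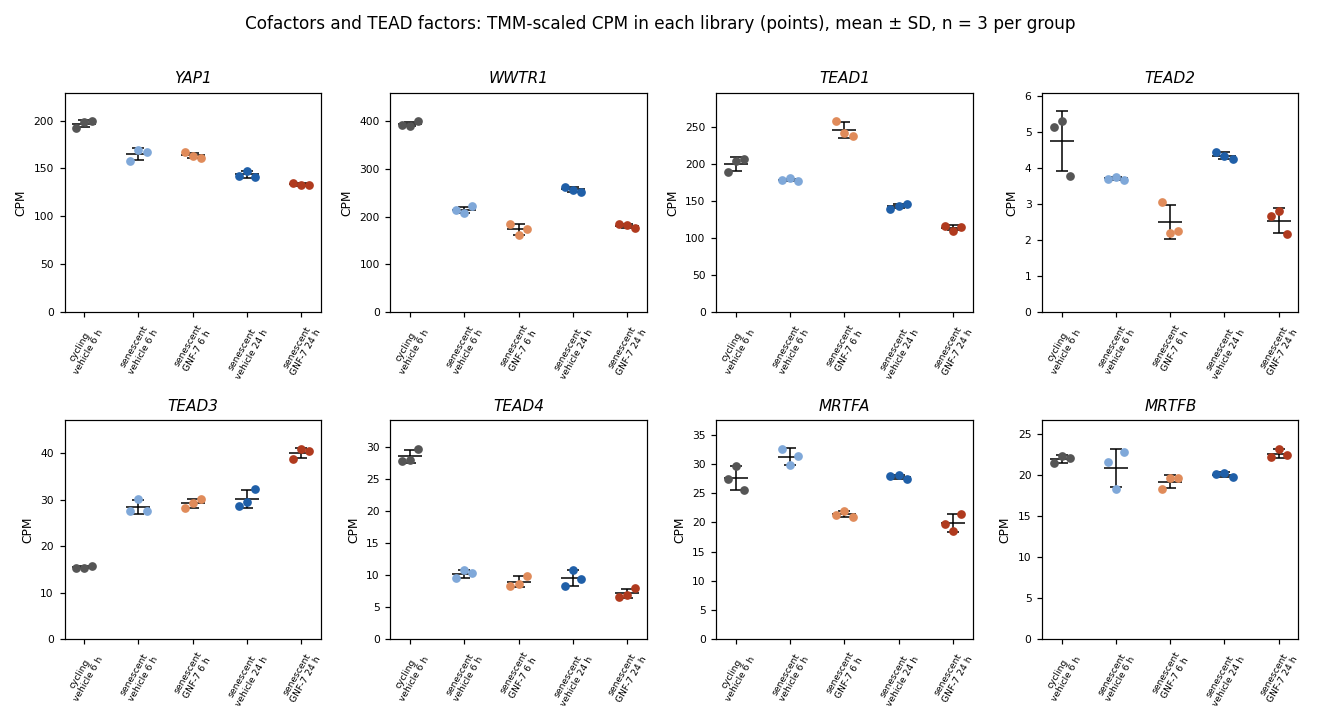
Level in CPM (y axis, from 0) of YAP1, WWTR1, TEAD1 to TEAD4, MRTFA and MRTFB in every library (points) of the 5 groups (x axis), with mean and SD of 3 libraries. YAP1 runs from 197 to 133 CPM, CCN2 from 352 to 31.9 CPM over the same groups, and TEAD1 peaks at 245 CPM with GNF-7 at 6 h.

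Other targets of the same factors were read from lists, of which LATS2 and PTPN14 stand in both the YAP target and Hippo lists and TGFB2 in both the YAP target and TGF-beta lists. Of 18 further YAP targets 17 were tested. With GNF-7 at 24 h, 13 fell and 1 rose (median log2 fold change -0.64, against 0.04 for all genes), beside 29.7% and 29.3% of all genes. Those that fell include TGFB2 (-1.79), RBMS3 (-1.77) and F3, which encodes tissue factor (-1.54). The riser was GADD45A (0.83), a stress-inducible gene. At 6 h 8 fell and 2 rose (median -0.09), beside 21.4% and 17.9% of all genes. The difference between times was called lower for 11 and higher for 0 of the 17, beside 18% and 12.8% of all genes. In senescence 8 fell and 6 rose (median -0.35), beside 34.4% and 35.6% of all genes, with FOXF2 (-1.15) and PTPN14 (-1.01) the lowest named and GADD45A (0.91) the highest.

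Most cytoskeletal targets of SRF and MRTF fell with GNF-7. Of 24 genes 22 were tested. With GNF-7 at 24 h, 21 were called lower and 1 higher (median -0.62), beside 29.7% and 29.3% of all genes. At 6 h 18 were called lower and 2 higher (median -0.22), beside 21.4% and 17.9% of all genes. VCL, which encodes the adhesion protein vinculin, fell from 342 ± 5.37 to 201 ± 6.51 CPM at 6 h (-0.77) and from 278 ± 2.51 to 107 ± 3.84 CPM at 24 h (-1.39). ACTB, beta-actin, fell from 3476 ± 97.3 to 1520 ± 46.3 CPM at 24 h (-1.19), and MYLK, the myosin light chain kinase, by 1.17 on the log2 scale. The gene called higher at 24 h was FHL1 (0.23). In senescence 14 were lower and 5 higher (median -0.31), beside 34.4% and 35.6% of all genes, with FHL1 (-1.46), ACTB (-0.98) and PDLIM5 (-0.87) the largest falls at a mean of at least 5 CPM, so the rise of ACTA2, TAGLN, MYL9 and TPM1 was not shared by most of this list. Of its 23 genes with a promoter entry, 11 held a CArG box and 9 a TEAD motif, beside 1.44% and 14.3% of all genes there. Of 13 further YAP targets with an entry, 0 held a CArG box and 5 a TEAD motif. The lists were chosen as targets of these factors, so the counts are a description.

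Of 8 immediate early targets of SRF with TCF, 7 were tested. FOS fell from 11.7 ± 5.37 to 2.59 ± 0.667 CPM with GNF-7 at 6 h (-2.17, SE 0.572, edgeR adjusted p 0.0111) and from 16.8 ± 6.99 to 1.82 ± 0.425 CPM at 24 h (-3.21, SE 0.591). At 6 h 4 were called lower and 1 higher, beside 21.4% and 17.9% of all genes. The total of 5 became 3 with the replicate number as a block, 3 without a filter, and 3 when vehicle replicate 1 or 3 or any of the 3 GNF-7 libraries was left out.

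Hippo genes were read in the same way. Of 25 Hippo genes tested, 18 fell and 4 rose in senescence (median -0.45), beside 34.4% and 35.6% of all genes. With GNF-7, 11 fell and 3 rose at 6 h, beside 21.4% and 17.9% of all genes, and 18 fell and 5 rose at 24 h (median -0.25), beside 29.7% and 29.3%. NF2, which encodes the Hippo activator merlin, fell from 136 ± 4.58 to 51.4 ± 1.21 CPM at 24 h (-1.41), the largest change of the list at a mean of at least 5 CPM.

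TGF-beta is known to raise ACTA2 and TAGLN in fibroblasts. Of its 13 genes, 9 rose and 2 fell in senescence (median 0.33), beside 35.6% and 34.4% of all genes. Those that rose include the ligand TGFB3 (1.00) and the inhibitor SMAD7 (0.76). With GNF-7 at 24 h 8 fell and 3 rose (median -0.67), beside 29.7% and 29.3% of all genes. Those that fell include the ligands TGFB3 (-2.10) and TGFB2 (-1.79), with means of 9.62 and 26.8 CPM over all libraries. ACTA2 and TAGLN were higher in the same libraries, and the part of TGF-beta in their levels was not tested.

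**Figure D4:**
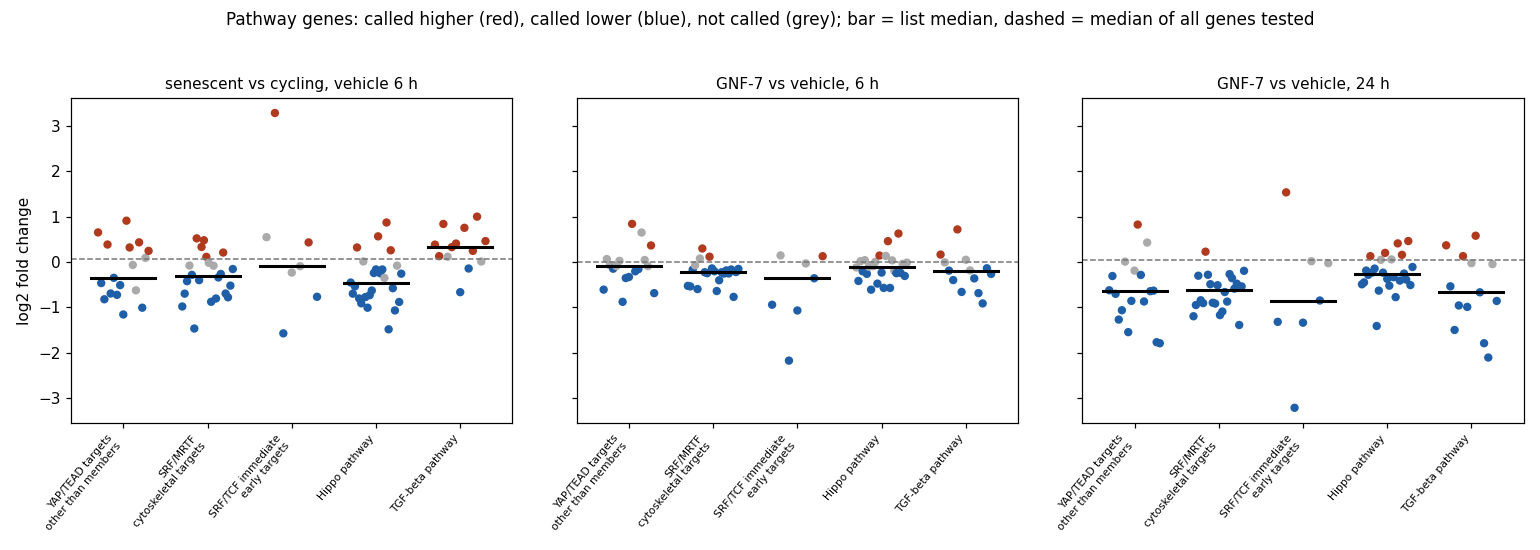
log2 fold change (y axis) of each pathway gene tested, by list (x axis), in 3 contrasts; red points were called higher, blue lower and grey not called, bars mark the list medians and the dashed line the median of all genes tested. With GNF-7 at 24 h the bars of both target lists lie near -0.6 (-0.64 and -0.62).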

How the data were processed

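Per the labels' protocols, libraries came from total RNA with a stranded mRNA kit. The authors deposited raw counts per Ensembl gene, without normalization. The submitters' processing notes name GRCh38, STAR 2.7.9a and featureCounts 1.5.1, and the annotation release and strand setting are not given in the sources used here. Of 60673 rows, 3 that hold 1 broken entry were left out, at most 0.00475% of a library. Symbols came from a name table that held 60400 of the 60670 identifiers, and positions and lengths from GENCODE release 29 (GRCh38).

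The test was the robust quasi-likelihood F test of edgeR 4.0.16 in R 4.3.3. The filter filterByExpr left 18563 genes, and TMM factors scaled the 15 libraries, in 1 fit with a term per group. Benjamini-Hochberg adjustment ran over all genes tested, and an adjusted p under 0.05 made a call. The standard error is the log2 fold change divided by the square root of F, and 95% intervals are 1.96 SE. The code was tested on simulated counts. Every pair of libraries within a group differed by more than sampling noise. Same-numbered libraries of vehicle and GNF-7 at 24 h deviated together (correlations 0.154, 0.120 and 0.110), so these numbers pair by the rule that every correlation is over 0.1. By the same rule the numbers of the GNF-7 groups at 6 h and 24 h pair too (0.254, 0.244 and 0.126). Those 2 groups were not set against each other directly, but both enter the interaction. In each other pair of groups at least 1 correlation was lower. A block in a fit of the 24 h groups was added after seeing the data. The labels do not say how the cultures were separated, so p-values measure the spread between these libraries.

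The genes and lists were chosen with earlier results of these data known. Named were the 10 genes, 8 regulators and, per list and contrast, up to 3 called genes with the largest change at a mean of at least 5 CPM, and the text uses a part of them. The results of 1 gene list and of 1 gene are not reported here. CNN1 and FAS, PCSK7, TPM1-AS and TERF2 are given for the reasons stated beside them. Alternatives were RLE factors (edgeR), total counts, TMM without mitochondrial genes, no filter, a filter at 5 CPM, DESeq2 (version 1.42.0), limma voom (version 3.58.1), a replicate block, each library left out, fits restricted to the compared groups, and transcript length. A gene outside the rule is named where it is the 1 gene of a count.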

Additional observations from a re-analysis of the deposited data

Results flagged for a closer look

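For 8 of the 9 genes tested, the GNF-7 effect was called different at 24 h and 6 h by the interaction term of the edgeR fit, beside 30.8% of all genes. On the log2 scale the effect at 24 h minus that at 6 h was -0.92 for TPM1, -0.81 for CCN2, -0.79 for CCN1, -0.56 for ANKRD1, -0.50 for MYL9, -0.16 for AMOTL2, 0.22 for ACTA2 and 1.03 for TAGLN. The AMOTL2 call was lost under 5 of 21 alternatives. The vehicle libraries differ between these times too, so each difference is between 2 effects that each have their own vehicle.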

How the results depend on the processing

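Of 54 gene and contrast pairs of the 9 genes tested, 49 kept direction and call under every alternative run that tested the gene (TAGLN is removed by the 5 CPM filter). Of 867 values, 11 lost and 3 gained a call, as given beside AMOTL2, MYL9 and TPM1. In vehicle at 24 h against 6 h, where TPM1 and TAGLN were not called, TPM1 turned negative with total counts (-0.10), TMM without mitochondrial genes (-0.0013) and no filter (-0.0057), and without a library ranged from -0.014 to 0.027. TAGLN ranged from -0.22 to 0.11. With total counts the all-gene median went from 0.06 to 0.19 in senescence, from 0.10 to 0.24 against cycling cells and from 0.01 to -0.10 in vehicle. With the replicate block in a fit of the paired 24 h groups alone, 11214 in place of 10940 genes were called, and the 9 genes kept their calls. In all 15 libraries the replicate block left the numbers of the 9 genes called as they were (8 with GNF-7 at 6 h), with 7481 in place of 7286 genes called at 6 h and 5921 in place of 5723 for the interaction. Immediate early genes called with GNF-7 at 6 h fell from 5 to 3 with the block or no filter, and lay between 3 and 6 without a library. For the interaction 1 in place of 2 were called with the 5 CPM filter, and between 1 (without GNF-7 replicate 1 at 6 h or 2 at 24 h) and 2 without a library. In vehicle there were 0 with no filter and 2 with the 5 CPM filter, DESeq2 or only the groups compared, in place of 1, and between 0 (without vehicle replicate 2 or 3 at either time) and 1 without a library. Against cycling cells 3 were called with only the groups compared. In vehicle the 8 further YAP targets called ranged from 5 (without vehicle replicate 1 at 6 h or 2 at 24 h) to 9, and the 8 TGF-beta genes from 5 (without vehicle replicate 2 at 24 h) to 8. The longest transcript gives 52.3 in place of 23.7 RPKM for ACTA2 and 86.9 for TPM1. Depth limits CNN1, at 0 to 16 counts, and TAGLN.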

Other observations

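The 4 YAP targets and SRF shared a descending order (cycling, vehicle 6 h, vehicle 24 h, GNF-7 6 h, GNF-7 24 h, with no overlap between neighbours). It was also met by 10 of the 98 other pathway genes tested, beside 1.38% of all genes tested. These were F3, AMOTL1, DIAPH1 and the cytoskeletal genes VCL, FLNA, ACTN1, TPM4, CNN2, WDR1 and PDLIM5. They were named after their values were seen, and the order was read off the 4 YAP targets and SRF, so the count is a description.

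The genes whose log2 CPM over the 15 libraries was most like that of CCN2, among 11216 genes with a symbol and a mean of at least 5 CPM, were CCN1 (Pearson r = 0.998), CNN2, a calponin (0.997), and PCDHGC3, a protocadherin (0.993). For TAGLN they were PANX2 (0.953), SIPA1L2 (0.950) and ZBTB46 (0.949). These values describe likeness over libraries that fall into 5 groups and carry no test.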
